A study of Mus musculus with 3 samples.

Results

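The cells described here were picked out of 3 single-cell RNA sequencing libraries of mouse dorsal skin by 2 keratin genes, Krt6a and Krt75, which are known as genes of the companion layer of the hair follicle. A cell barcode was kept when 200 or more genes were detected and no more than 20% of its counts were mitochondrial. A kept cell was chosen when Krt6a and Krt75 together reached at least 1000 CPM (counts of a gene in each 1000000 counts of the cell, or of the cells summed), and when the inner root sheath genes Tchh, Krt71, Krt25, Krt27, Krt28 and Krt73 together stayed under 500 CPM. This gave 166 of 5760 kept cells, which are called Krt6a/Krt75 cells below. The choice used the measured counts of these 8 genes, so their values are given as a description and without a test. Of the chosen cells 0, 0 and 1 carried a barcode that was also listed in another library, whether kept there or not, and doublets were not removed.

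The libraries were made from cells of the epidermis and hair follicle of P18 mice, an age at which the first regression of the hair follicle (catagen) has begun. In 2 control libraries the mice were *Vdr* flox/flox, and in 1 library they were *Vdr* flox/flox; Krt14cre (*Vdr* cKO), in which Cre driven by the Krt14 promoter removes exon 3 of the vitamin D receptor gene in keratin 14 epithelium. All groups thus carried the floxed allele, and the skin of 3 male mice was pooled for each library, so that single animals cannot be told apart. The cells were released with trypsin and captured in droplets with the Nadia instrument, and the kept cells held 18802408, 28690129 and 30954897 counts in control 1, control 2 and the *Vdr* cKO library. With 1 library of that genotype, no test between genotypes was made.

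The companion layer is a thin sheet of flat cells between the outer and the inner root sheath. Its cells pair type II keratins such as Krt6a and Krt75 with the type I keratins Krt16 and Krt17, and the layer moves up the follicle together with the inner root sheath. Krt6a is not limited to it: Krt6a, Krt16 and Krt17 also appear in the inner bulge of the resting follicle and in epidermis that is wounded or stressed. On GRCm38, Krt6a lies on the minus strand of chromosome 15 at 101689910 to 101694307, and Krt75 lies at 101563345 to 101573904 of the same chromosome and strand. Krt16 lies on the minus strand of chromosome 11 at 100246091 to 100248902.

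The share of Krt6a/Krt75 cells was 0.811% and 0.844% in control 1 and control 2, and it was 5.34% in the *Vdr* cKO-labelled library. These were 12 of 1480 cells (exact Clopper-Pearson 95% interval 0.420% to 1.41%), 14 of 1658 cells (0.462% to 1.41%) and 140 of 2622 cells (4.51% to 6.27%). The intervals cover counting error only, since the counts may include PCR copies and cells of 1 library are not replicates. The shares of the 2 controls lay within each other's interval, and the share of the *Vdr* cKO-labelled library lay above both at each limit from 500 to 2000 CPM. At a limit of 5000 CPM only 1, 3 and 21 cells were left, and the intervals of control 2 and the *Vdr* cKO-labelled library overlapped. Thinned to 1000 counts a cell, with shallower cells left out, the shares were 1.43%, 1.5% and 8.86%. At that depth 1 count of either keratin equals 1000 CPM, so any count passed the keratin limit. These shares are therefore not on the same footing as the unthinned ones.

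**Figure D1:**
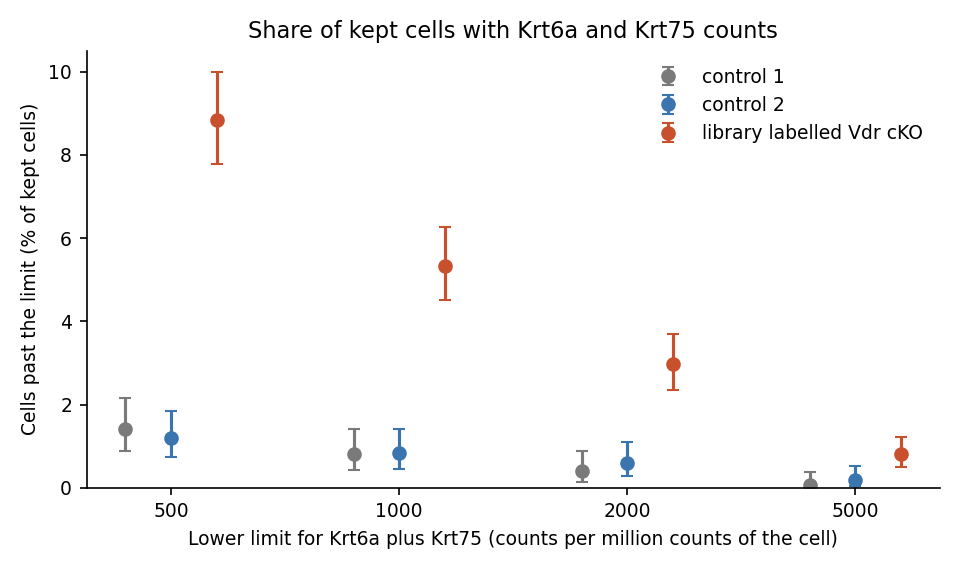
Share of kept cells (y axis, percent) whose Krt6a and Krt75 counts reached a limit (x axis, CPM of the cell) while the inner root sheath genes stayed low, for the 3 libraries. Points are shares and bars exact 95% intervals for counting error; at 1000 CPM they are 0.811%, 0.844% and 5.34%.

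The companion layer label fitted only a section of these cells. In both control libraries all of the chosen cells had Krt6a counts and none had a Krt75 count, which allows a Krt75 level of up to 38.9 CPM in control 1 and 9.79 CPM in control 2 (3 counts over the summed cells). Krt16 had 3 counts, in 1 of the 12 cells of control 1, and no count in the 14 cells of control 2. In the *Vdr* cKO-labelled library, 88 cells had Krt6a only, 35 had Krt6a and Krt75, and 17 had Krt75 only. Krt16 was counted in 34 of these 140 cells. Among the chosen cells, Krt75 was therefore counted in the *Vdr* cKO-labelled library alone. The name Krt6a/Krt75 cells stands for the way they were chosen, on the sum of both genes, and most of them had no Krt75 count.

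Summed over the chosen cells, Krt6a stood at 2777, 2781 and 1968 CPM in control 1, control 2 and the *Vdr* cKO-labelled library, against 2.51, 7.36 and 60.5 CPM in the other kept cells of the same library. Krt75 stood at 0, 0 and 728 CPM, against 0.267, 0.176 and 9.12 CPM. Among single cells of the *Vdr* cKO-labelled library, Krt6a ranged from 0 to 12734 CPM with a median of 1707, and Krt75 from 0 to 6283 with a median of 0. Krt6a was thus the more frequent of both keratins, and 114 of the 140 cells passed the limit by Krt6a alone, 33 by Krt75 alone and 4 only by their sum.

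Many cells lay near the limits. In the range from 1000 to 1200 CPM there were 1, 1 and 18 cells, and from 800 to 1000 CPM, just outside, 2, 2 and 38. The counts behind the choice were few, with 2 cells of the *Vdr* cKO-labelled library chosen by a single count and 20 by at most 3 counts. The inner root sheath genes had no count in 12 of 12, 14 of 14 and 124 of 140 cells. The highest inner root sheath level inside was 474 CPM, the lowest of the 10 cells stopped by that limit was 831 CPM, and all 10 came from the *Vdr* cKO-labelled library.

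**Figure D2:**
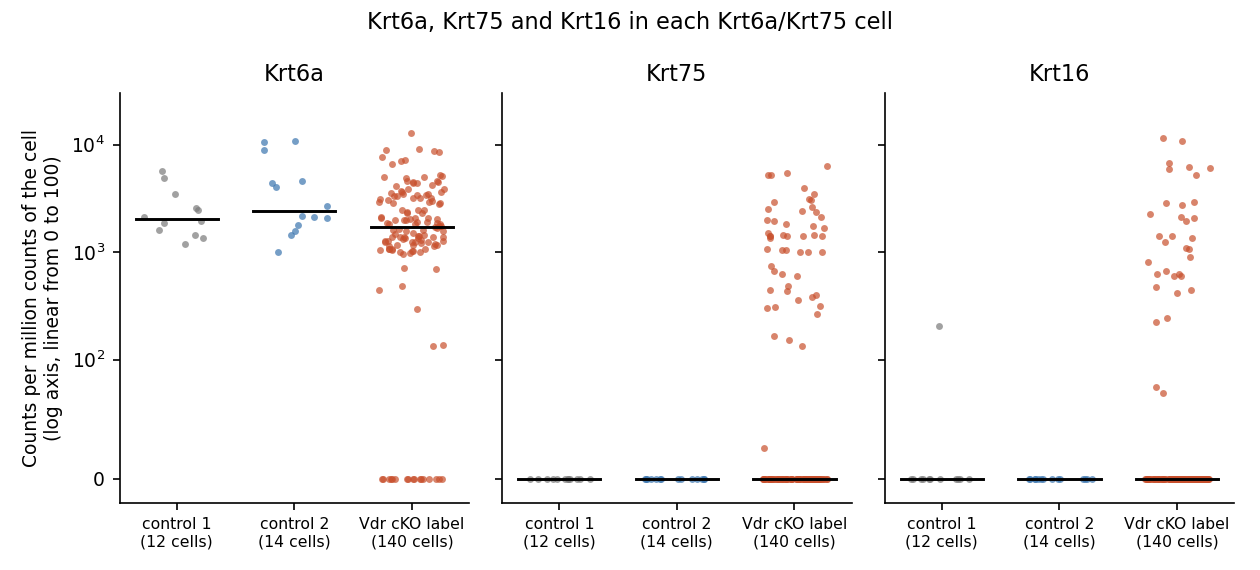
Krt6a, Krt75 and Krt16 in each Krt6a/Krt75 cell (y axis, CPM of the cell, on a log axis that is linear from 0 to 100) of control 1 (12 cells), control 2 (14 cells) and the *Vdr* cKO-labelled library (140 cells). Each point is a cell and each line a median; Krt75 points above 0 appear only in the *Vdr* cKO-labelled library.

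Outside the chosen cells, Krt6a and Krt75 were also found more often in the *Vdr* cKO-labelled library. A Krt6a count was present in 1.29%, 2.37% and 13.2% of the other kept cells, and a Krt75 count in 0.136%, 0.0608% and 2.14%. Antigen-presenting-like cells, which should lack both keratins, showed a Krt6a count in 1 of 20, 0 of 28 and 0 of 29 cells after thinning to 1000 counts, where 0 of 29 cells allows a share of up to 10.3%. The thinned share among the other cells was 0.481%, 0.757% and 4.90%, so that at this depth it could not be told apart from the share in antigen-presenting-like cells. In the *Vdr* cKO-labelled library the cells deep enough to be thinned had held a median of 4195 counts among the other cells and 5084 among the antigen-presenting-like cells. Of the latter, 13.8% had a Krt6a count before thinning.

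Krt6a and Krt6b are near copies of each other. Of the 2415 runs of 50 bases in the Krt6a transcripts, 972 (40.2%) also occur in Krt6b and none in Krt75. Krt6b had no count in any Krt6a/Krt75 cell and 0.0683 CPM in the other cells of the *Vdr* cKO-labelled library, so how reads were split between the copies is uncertain. Calb2, another companion layer gene, is not among the gene symbols of the files used here.

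Krt16, the type I partner of Krt6a, was not used in the choice. The Krt6a/Krt75 cells had Krt16 at 38.9, 0 and 734 CPM in control 1, control 2 and the *Vdr* cKO-labelled library, and the other cells had it at 46.4, 12.1 and 27.9 CPM. It was 26.4-fold higher than in the other cells in the *Vdr* cKO-labelled library. There the exact Poisson interval of the summed level ran from 694 to 777 CPM, which covers counting error only and not the spread between cells. The control values rest on 3 and 0 counts. The fitted change over the 3 libraries was a log2 fold of -0.04 (SE 2.05, edgeR adjusted p = 0.997), and its sign turned to 0.47 with DESeq2 size factors and to 0.43 with library totals alone. The sign turned in 13 of 22 alternatives, which ran from -2.35 to 3.05. With each gene counted once per cell Krt16 was higher and passed the test (edgeR adjusted p = 0.000873).

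The 1229 Krt16 counts of the *Vdr* cKO-labelled library were unevenly spread. The highest cell held 362 of them and the second 116, and these were also the 2 cells with the most hair keratin counts. Without this pair Krt16 stood at 461 CPM, Krt6a at 1900 CPM and Krt75 at 741 CPM. Averaging the CPM of each cell in place of summing counts gave a log2 ratio of 3.67 for Krt16, against 4.67 from the sums.

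Krt17, the other type I partner, was at 636, 3482 and 3630 CPM in the Krt6a/Krt75 cells and at 627, 734 and 1994 CPM in the other cells. The level was higher in control 2 and in the *Vdr* cKO-labelled library, and in control 1 the values of 636 and 627 CPM lay within counting error. A Krt17 count was present in 3 of 12, 6 of 14 and 113 of 140 cells. In control 1 a single cell held 45 of the 49 Krt17 counts, and without it Krt17 stood at 64.2 CPM, below the other cells. The fitted log2 fold of 0.81 (SE 0.48, edgeR adjusted p = 0.831) did not pass the test.

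None of the basal keratins passed the test. Krt5, a type II keratin of basal and outer root sheath cells, was at 1388, 1638 and 3576 CPM in the Krt6a/Krt75 cells and at 676, 408 and 2193 CPM in the other cells. It was the higher in all 3 libraries, but its log2 fold of 1.00 (SE 0.49) had an edgeR adjusted p of 0.585. Krt14, its type I partner, was at 947, 649 and 3805 CPM against 857, 610.5 and 1905 CPM, a ratio of 1.11, 1.06 and 2.00. In control 1 a single cell held 56 of the 73 Krt14 counts, and without it Krt14 stood at 242 CPM, below the other cells. In control 2, 2 cells held 177 of the 199, and without both it stood at 203 CPM, also below. Krt15, which is high in bulge and basal cells, was at 1168, 1948 and 11823 CPM against 2951, 2124 and 7409 CPM, lower in both controls and higher in the *Vdr* cKO-labelled library. In control 2 a single cell held 455 of the 597 Krt15 counts, and without it Krt15 stood at 473 CPM.

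Counts of the Krt6a/Krt75 cells were then compared with those of the other kept cells, summed within each library, by edgeR's quasi-likelihood test with the library as a block and the 8 genes of the choice left out. Of 10878 genes tested, 3 passed an adjusted p of 0.05, all lower in the Krt6a/Krt75 cells (0.0276% of the genes), and none (0%) was higher. This direction depended on the processing, as given in the last section. Without a filter on low counts most called genes were higher, and with each gene counted once per cell all of them were. At an unadjusted p of 0.05, 855 genes passed. The 3 genes belong to differentiating epidermis: Krt10, the type I keratin of spinous cells, Lor, which encodes loricrin of the cornified envelope, and Krtdap, a gene of differentiating keratinocytes.

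Krt10 was at 15064, 23546 and 17021 CPM in the Krt6a/Krt75 cells and at 35275, 33054 and 24575 CPM in the other cells. The 2 sets of values did not overlap, and the log2 fold was -0.99 (SE 0.18, edgeR adjusted p = 0.000213). Lor was at 5917, 10717 and 4759 CPM against 13257, 12951 and 12340 CPM. Its values did not overlap either, and its log2 fold was -1.19 (SE 0.25, edgeR adjusted p = 0.00715). Krtdap was at 8122, 22799 and 12163 CPM against 16960, 28312 and 17197 CPM, lower within each library, with a log2 fold of -0.87 (SE 0.20, edgeR adjusted p = 0.0440). All 3 calls ended with other scalings: the edgeR adjusted p was 0.106 for Krt10, 0.106 for Lor and 0.250 for Krtdap with DESeq2 size factors, and 0.0720, 0.114 and 0.114 with library totals alone.

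The sums weigh deep cells most, and a few deep cells decided part of these values. The deepest cell held 28.9% of the counts of the Krt6a/Krt75 cells in control 1, 63.7% in control 2 (195285 of 306418 counts, with 3450 detected genes) and 12.4% in the *Vdr* cKO-labelled library. In control 1 that cell held 21 of the 456 Lor counts, and without it Lor stood at 7937 CPM. In control 2 it held 2839 of the 3284 Lor counts, and without it Lor stood at 4004 CPM. Cell by cell, the median Lor level of the Krt6a/Krt75 cells was 8851, 13054 and 4233 CPM, against 8708, 7786 and 5666 CPM in the other cells, so that the median was lower in the *Vdr* cKO-labelled library alone. The median Krt10 level was lower in each library, at 21607, 23226 and 12341 CPM against 28757, 26044 and 15025. The median Krtdap level was lower as well, at 14406, 18082 and 8698 CPM against 16236, 23988 and 12719.

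With the cell of most Krt6a and Krt75 counts left out of each library, no gene passed the test, and Krt10 had a log2 fold of -0.90 (adjusted p = 0.139). Without control 1, control 2 or the *Vdr* cKO-labelled library, 5, 313 and 0 genes passed.

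**Figure D3:**
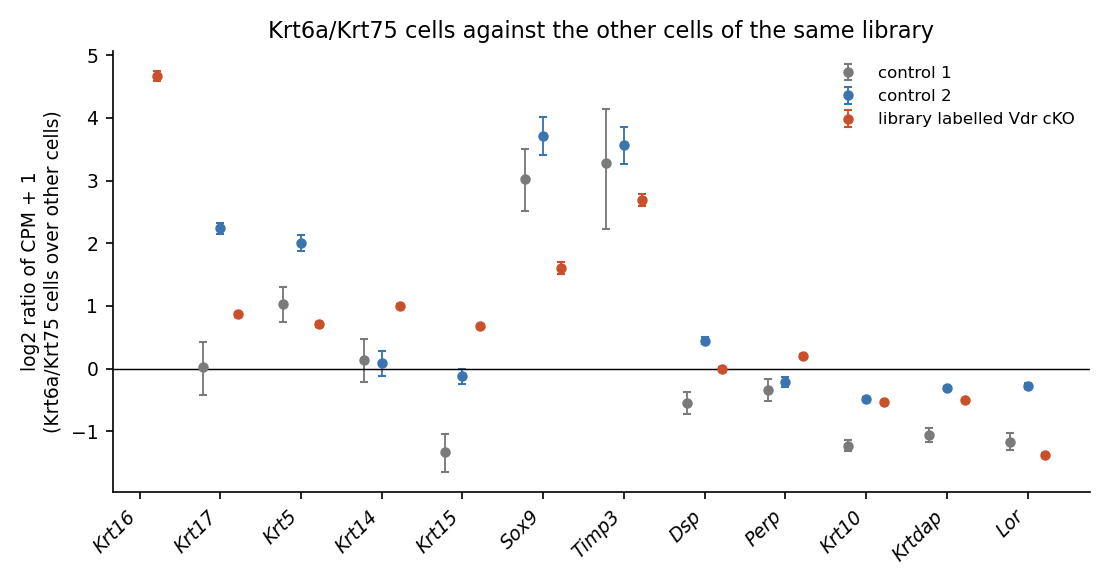
Level of 12 genes in the Krt6a/Krt75 cells relative to the other kept cells of the same library (y axis, log2 ratio of CPM with 1 CPM added), summed over cells. Bars are exact Poisson 95% intervals of the count in the Krt6a/Krt75 cells and cover counting error only; Krt16 is not drawn for the controls, where it had 3 and 0 counts, and Krt10, Krtdap and Lor lie below 0 in all 3 libraries.

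The 3 genes that passed belong to the epidermal differentiation lists. Of 10 spinous genes tested, 2 were called lower (Krt10 and Krtdap), none higher, and 6 had a lower CPM in the Krt6a/Krt75 cells of all 3 libraries. Of 17 granular and cornified genes, 1 was called lower (Lor), and 12 had a lower CPM in all 3 libraries. Over all 10878 genes 36.9% did so, and 2.01% had a higher CPM in all 3 libraries. The median log2 fold was -0.87 for the spinous and -1.19 for the granular and cornified genes, beside -1.43 over all genes tested. Of 6 antigen-presenting genes tested, 5 were lower in all 3 libraries with a median of -3.40, and so were 4 of 6 T cell genes with a median of -2.88, none of which passed the test. Few control cells were chosen, and 73.2% of the genes tested had no count in the 12 cells of control 1 and 54.5% none in the 14 cells of control 2.

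The summed level of the spinous genes was 61087, 104651 and 63390 CPM in the Krt6a/Krt75 cells and 111283, 125910 and 83531 CPM in the others. For the granular and cornified genes it was 18295, 22988 and 10341 CPM against 26742, 25604 and 21448 CPM. A Krt10 count was present in 12 of 12, 14 of 14 and 140 of 140 Krt6a/Krt75 cells and a Lor count in 11, 14 and 134 of them. These shares are not above background, since a Krt10 count was present in 100% of the antigen-presenting-like cells of each library and a Lor count in 100%, 100% and 93.1%. Whether these transcripts were made in the cells was not tested.

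Other genes of these layers did not pass the test. Dmkn, a secreted protein of the suprabasal epidermis, was at 7149, 18909 and 7040 CPM against 15764, 18503 and 8798 CPM, with control 2 on the other side of the remaining libraries. Sbsn, found in the same layers, was at 11781, 12868 and 7049 CPM against 13102, 14150 and 9010 CPM. Klk7, a protease of cornified cells, was at 4165, 3805 and 1045 CPM against 2342, 2692 and 1802 CPM, above the other cells in both controls and below them in the *Vdr* cKO-labelled library.

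Of 6 tested genes shared with the inner bulge and the suprabasal outer root sheath, none passed the test and 4 had a higher CPM in all 3 libraries (Krt17, Krt5, Sox9 and Timp3), beside 2.01% of all genes tested, with a median log2 fold of 0.90 beside -1.43. For Krt17 the direction in control 1 rested on the single cell given above. Sox9, a transcription factor of the outer root sheath and the bulge, was at 454, 294 and 516 CPM against 54.7, 21.4 and 168 CPM. Its log2 fold of 2.56 (SE 1.25) had an edgeR adjusted p of 0.562, and its counts came from 2 of 12, 3 of 14 and 59 of 140 cells. In control 1, 32 of the 35 Sox9 counts were in the deepest cell, and without it Sox9 stood at 54.73 CPM, beside 54.69 CPM in the other cells. In control 2, 1 cell held 80 of the 90 Sox9 counts, and without it Sox9 stood at 37.3 CPM. Timp3, an inhibitor of matrix proteases, was at 130, 310 and 563 CPM against 12.5, 25.1 and 86.4 CPM (log2 fold 2.99, SE 1.41, edgeR adjusted p = 0.513), from 1, 2 and 46 cells. The Timp3 counts of control 1 came from a single cell, and in control 2, 1 cell held 90 of 95, without which Timp3 stood at 18.7 CPM, below the other cells. In control 2, 2 cells held 88 of the 90 Sox9 counts, and without both Sox9 stood at 7.75 CPM, below the 21.4 CPM of the other cells.

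Of the companion layer list itself, 2 genes could be tested beside the genes of the choice, Krt16 and Krt17, and neither passed. Of 10 genes tested from a list of wound and stress keratinocyte genes, none passed, and 7 were higher in the *Vdr* cKO-labelled library, where 44.8% of all genes tested were. The list had a median log2 fold of -1.28, beside -1.43 over all genes tested. Sprr1a, a cornified envelope precursor induced by stress, was at 480, 166 and 462 CPM in the Krt6a/Krt75 cells and at 516, 103 and 438 CPM in the others. The wound list without Krt6a summed to 1440, 4252 and 5127 CPM against 1545, 1119 and 2691 CPM, and Krt17 was its most abundant gene in each library.

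Among basal or outer root sheath genes, none of 12 passed. In all 3 libraries 2 of them were higher and 4 lower, beside 2.01% and 36.9% of all genes tested. Their median log2 fold was -0.55, beside -1.43 over all genes tested. The sum of the 12 genes was 6163, 4686 and 20555 CPM in the Krt6a/Krt75 cells and 5056, 3587 and 13277 CPM in the others. The higher sums of the controls rest on few cells. In control 1 the most abundant of these genes was Dst, at 2556 against 281 CPM, with counts in 3 cells. In control 2 it was Krt15, with 455 of its 597 counts in a single cell, without which Krt15 stood at 473 CPM. Of 9 upper follicle genes none passed, and Cst6, a cysteine protease inhibitor, was at 169, 15534 and 4546 CPM against 909, 1879 and 3152 CPM. In control 2, 2 cells held 4271 of the 4760 Cst6 counts, and without them Cst6 stood at 1895 CPM. Likewise, 2 cells held 2892 of the 7608 Cst6 counts of the *Vdr* cKO-labelled library, and without them Cst6 stood at 3029 CPM, below the other cells. Of 6 bulge genes tested none passed, and Lhx2, a transcription factor of follicle stem cells, was at 51.9, 29.4 and 86.6 CPM against 7.48, 0.176 and 17.3 CPM on 4, 9 and 145 counts.

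Of 5 tested inner root sheath genes that the choice did not use, none passed and none was higher in all 3 libraries. In the *Vdr* cKO-labelled library 3 of them were higher, where 44.8% of all genes tested were. Their sum was 714, 744 and 932 CPM against 1005, 984 and 1164 CPM. Gata3, a transcription factor of the inner root sheath that is also found in epidermis, made up most of it, at 558, 538 and 599 CPM against 645, 599 and 752 CPM. Foxc1, another of its transcription factors, was at 0, 62.0 and 85.4 CPM against 15.6, 16.9 and 55.6 CPM, higher in control 2 and the *Vdr* cKO-labelled library and at 0 in control 1.

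Hair shaft and matrix genes summed to 0, 3.26 and 596 CPM in the Krt6a/Krt75 cells and to 27.2, 57.0 and 94.6 CPM in the others. In the *Vdr* cKO-labelled library, 2 cells held 96.0% of the 1463 counts of 9 hair keratin genes, 1078 and 326 counts out of totals of 33094 and 9986. Krt35, a keratin of the hair cortex and cuticle, had 302 counts in 9 cells, of which 190 were in 1 cell. The hair keratin level is thus a value of 2 cells and not of the 140.

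Markers of other cell types were read for the same sums, and their part in the results above was not tested. Of 9 sebaceous genes tested none passed; their sum was 1025, 1214 and 4170 CPM against 3594, 2318 and 1756 CPM, higher only in the *Vdr* cKO-labelled library, with Scd1, a fatty acid desaturase, as the most abundant gene in each. Of the 10 sebaceous genes in the files, 5, 5 and 0 had no count in the Krt6a/Krt75 cells. Antigen-presenting genes summed to 77.9, 3.26 and 133 CPM against 174, 268 and 343 CPM, with 5, 6 and 1 of 7 genes at 0. T cell genes summed to 0, 0 and 52.6 CPM against 36.0, 21.9 and 80.1 CPM, with 8, 8 and 1 of 8 genes at 0.

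Of the remaining cell types, the fibroblast genes summed to 130, 0 and 189 CPM against 14.8, 13.0 and 90.3 CPM, and Col3a1 had no count in any Krt6a/Krt75 cell. Melanocyte genes summed to 0, 0 and 52.6 CPM against 4.11, 3.59 and 39.6 CPM. The endothelial sum was 13.0, 0 and 0 CPM against 4.17, 9.05 and 2.60 CPM, and the smooth muscle sum was 0, 0 and 1.79 CPM against 0.0534, 3.49 and 0.478 CPM. Erythroid genes summed to 0, 9.79 and 75.9 CPM against 104, 468 and 61.8 CPM. Cycling genes summed to 337, 19.6 and 347 CPM against 197, 158 and 482 CPM, with 12, 12 and 0 of 14 genes at 0.

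**Figure D4:**
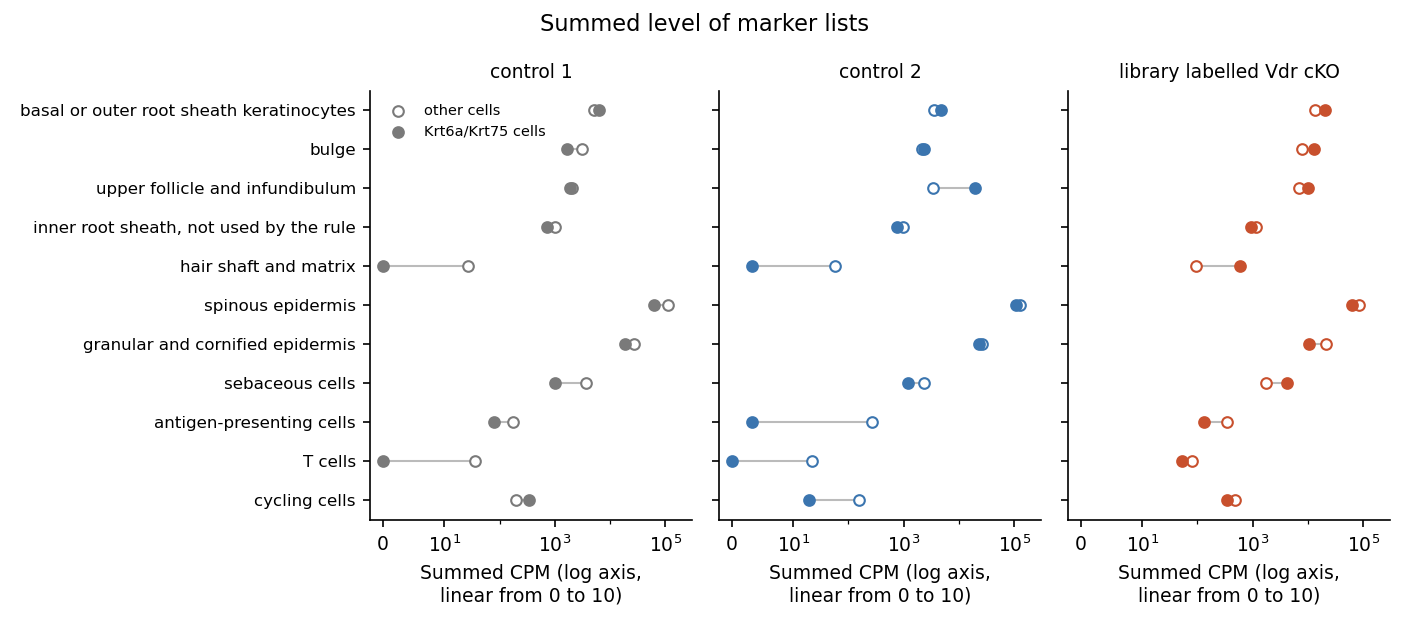
Summed level of 11 marker lists (x axis, CPM on a log axis that is linear from 0 to 10) in the Krt6a/Krt75 cells (filled points) and the other kept cells (open points) of each library. The spinous and granular lists are lower in the Krt6a/Krt75 cells of all 3 libraries, and the hair shaft list is higher only in the *Vdr* cKO-labelled library, at 596 against 94.6 CPM.

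The adhesion and signalling lists held no gene that passed. Of 12 desmosome and adherens junction genes 6 were higher in the *Vdr* cKO-labelled library, near the share of all genes (44.8%), and Dsp, which encodes desmoplakin, was at 3412, 7017 and 3287 CPM against 4992, 5143 and 3296 CPM. Their sum was 8408, 15022 and 11353 CPM in the Krt6a/Krt75 cells and 12701, 12822 and 10529 CPM in the others. The 9 connexins and claudins summed to 1842, 1159 and 1235 CPM against 1436, 1480 and 1332 CPM. The EGF receptor ligands and receptors summed to 1505, 261 and 531 CPM against 624, 607 and 699 CPM, the apoptosis genes to 156, 398 and 454 CPM against 203, 239 and 333 CPM, and the Notch genes to 272, 271 and 545 CPM against 211, 257 and 478 CPM. Genes that respond to tissue dissociation summed to 2803, 2843 and 4440 CPM against 2599, 2392 and 5141 CPM. The direction of these sums changed between libraries in each of the 6 lists except that of the Notch genes. Of the 9 Notch genes, 7 and 6 had no count in the Krt6a/Krt75 cells of control 1 and control 2, so their direction there rests on few genes.

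*Vdr*, the gene that the Cre allele targets, was not lower in the *Vdr* cKO-labelled library. Over all kept cells it was at 40.7, 35.9 and 80.8 CPM, with a count in 3.18%, 5.91% and 12.7% of the cells. In the Krt6a/Krt75 cells it had 0, 16 and 103 counts, or 0, 52.2 and 61.5 CPM, against 40.9, 35.7 and 81.9 CPM in the others. The count covers the whole gene, and reads outside exon 3 do not tell a deleted from an intact allele, so these values do not check the genotype. Of the 6 genes tested from the vitamin D receptor list none passed, and Hr, a corepressor that binds the receptor, was at 0, 84.9 and 127 CPM against 142, 189 and 183 CPM.

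The 140 cells of the *Vdr* cKO-labelled library allow a closer view, within 1 library and without a test. Of 3230 genes with a count in at least 14 of these cells, 226 (7%) were over 2-fold above the other cells and 26 (0.805%) over 4-fold. The 20 highest by log2 ratio, chosen after their values were seen, began with Krt16, Bdh1, an enzyme of ketone body metabolism, and Gpx2, a glutathione peroxidase. Gpx2 was at 95.6 CPM against 7.04 CPM in the other cells, with a count in 20 of 140 cells and in 1.93% of the others.

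Others of the 20 genes showed like differences. Edn1, which encodes endothelin 1, was at 259 against 23.0 CPM, Ccn2, a matrix-associated growth factor, at 156 against 18.03 CPM, and Bmp2, a bone morphogenetic protein, at 131 against 24.2 CPM. Cryab, a small heat shock protein, was at 279 against 22.7 CPM, and Timp3 at 563 against 86.4 CPM. Pinlyp, a phospholipase A2 inhibitor, was at 431 against 73.0 CPM, in 38 of 140 cells. Fzd1, a Wnt receptor, was at 78.3 against 13.7 CPM, and Palld, an actin-binding protein, at 249 against 55.4 CPM.

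These levels fell when each cell was given equal weight. The log2 ratio of Edn1 was 3.44 from the sums and 1.80 from the mean of each cell's CPM, that of Cryab 3.56 and 2.44, and that of Bmp2 2.40 and 1.27. Pinlyp kept its ratio, at 2.55 and 2.58. The 8 deepest cells held 44.98% of the counts of the 140, and a single cell held 163 of the 467 Cryab counts and 124 of the 434 Edn1 counts. In the control cells Edn1, Ccn2, Gpx2 and Pinlyp had no count, which allows up to 38.9 and 9.79 CPM.

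Of 2983 genes with a count in at least 10% of the other cells, 198 (6.64%) were over 2-fold below them. The lowest were Ly6m, at 8.37 against 227 CPM, Gsto1, a glutathione transferase, at 3.59 against 68.1 CPM, and the transcription factor Foxo1, at 4.78 against 62.7 CPM. Each was on the other side in a control, where its counts came from 2 cells. Ly6m was at 764 against 443 CPM and Gsto1 at 392 against 43.1 CPM in control 2, and Foxo1 at 272 against 30.7 CPM in control 1. Lce1c and Lce1a2, late cornified envelope genes, were at 33.5 and 75.3 CPM against 255 and 344 CPM in the sums. By the mean of each cell's CPM the log2 ratio of Lce1c was 0.00 and that of Lce1a2 -0.23, so that both values depend on how the cells are weighted.

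The keratin classes within the 140 cells differed. The 35 cells with both Krt6a and Krt75 had a median of 13343 counts, against 3297.5 in the 88 cells with Krt6a only, 2193 in the 17 cells with Krt75 only and 4094.5 in the other cells. A deeper cell is more likely to show both keratins, and the classes were set on the counts before thinning. Shares of cells with other genes were also read after thinning each cell to 1000 counts, which left 35, 86, 14 and 2427 cells. Thinning evens the depth at which these genes were read. It does not remove the part of depth in which cells fell into which class. A Krt16 count was present in 25 of 35 cells with both keratins before thinning (71.4%), in 9 of 88 with Krt6a only (10.2%), in 0 of 17 with Krt75 only and in 5.64% of the other cells.

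After thinning, Krt16 was counted in 57.1% of the cells with both keratins (exact 95% interval 39.4% to 73.7%), in 5.81% of those with Krt6a only (1.91% to 13.0%), in 0 of 14 with Krt75 only, which allows a share of up to 21.4%, and in 2.51% of the other cells (1.93% to 3.22%). The antigen-presenting-like cells had it in 1 of 29. The share with Krt16 was thus highest where both Krt6a and Krt75 were counted, but of the 174 kept cells with Krt16 in this library 140 were not among the chosen cells, and 25 were chosen cells with both keratins. Summed, Krt16 was at 1132 CPM in the cells with both keratins and at 190 CPM in those with Krt6a only. The 2 highest cells held 478 of the 1109 counts of the former, and without them the level was 673 CPM.

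The 20 leading genes were chosen for being high in the summed counts of the 140 cells, so their shares by class are a description. The 35 cells with both keratins had the highest median depth (13343 counts) and weighed most per cell in those sums. That this class stood highest was thus partly built in by the choice. The 14 cells with Krt75 only are left aside here. In 17 of the 20 genes the share was highest in the cells with both keratins, lower with Krt6a only and lowest in the other cells. The exceptions were Bdh1, Cracr2b and S100a1. In the cells with both keratins the share ran from 2.86% to 57.1%, over 10% for 11 genes. Pinlyp was counted after thinning in 48.6% of the cells with both keratins, 9.30% of those with Krt6a only and 3.42% of the others. For Timp3 the shares were 31.4%, 8.14% and 4.66%, for Edn1 22.9%, 2.33% and 1.52%, and for Gpx2 20.0%, 2.33% and 0.618%. Fzd1 and Cracr2b were each counted in 2.86% of the cells with both keratins (0.0723% to 14.9%). Krt79, a keratin of the upper follicle, was counted in 60.0% (42.1% to 76.1%), 36.0% and 31.9% (30.0% to 33.7%).

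Lor showed the reverse. It was counted after thinning in 45.7% of the cells with both keratins (28.8% to 63.4%), in 80.2% of the cells with Krt6a only (70.2% to 88.0%), in 78.6% of those with Krt75 only and in 83.4% of the others (81.9% to 84.9%). Summed, it was at 3601, 6384 and 6511 CPM in the 3 classes, against 12340 CPM in the other cells. The antigen-presenting-like cells of this library had Lor in 75.9% (56.5% to 89.7%), Krt5 in 65.5% (45.7% to 82.1%), Krt17 in 34.5% and Krt79 in 27.6% after thinning, so that the shares of these 4 genes include a large background. Krt5 was found at a like share in all 3 classes, in 82.9%, 81.4% and 85.7% of the cells, against 63.9% (61.9% to 65.8%) of the others. For Krt17 the shares were 65.7%, 60.5% and 50% against 50.8%, with wide intervals.

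**Figure D5:**
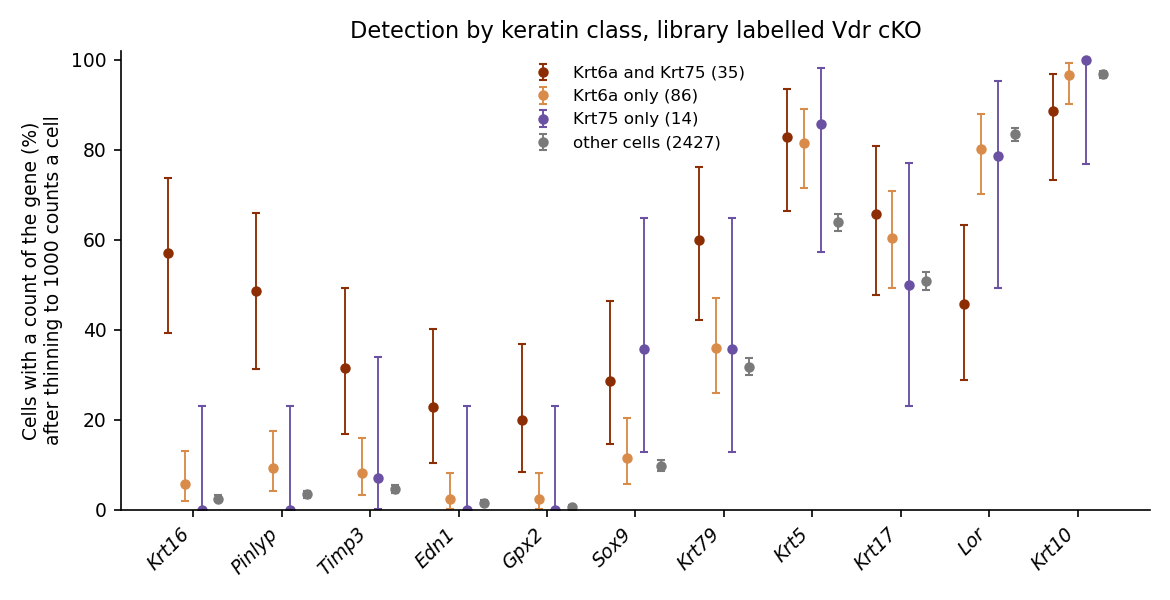
Share of cells with a count of each gene (y axis, percent) after each cell of the *Vdr* cKO-labelled library was thinned to 1000 counts, for cells with Krt6a and Krt75, with Krt6a only, with Krt75 only, and for the other kept cells. The classes were set on the counts before thinning. Points are shares and bars exact 95% intervals for counting error; for Krt16 the points are 57.1%, 5.81%, 0% and 2.51%.

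Over all kept cells, whether chosen or not, the keratins also met in the same cells. In the *Vdr* cKO-labelled library, Krt6a was counted in 56 of the 105 cells with Krt75 (53.3%) and in 15.7% of the cells without it. Krt16 was counted in 32 of these 105 cells (30.5%) and in 5.64% of the cells without Krt75. Among the 450 cells with Krt6a, 66 had Krt16 (14.7%), against 4.97% of the cells without Krt6a. The median depth was 6369 counts in the cells with Krt75 and 4001 in those without.

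In the controls the pairs were few. Krt16 was counted in 3 of 31 cells with Krt6a in control 1 (9.68%, interval 2.04% to 25.8%) and in 5 of 53 in control 2 (9.43%, 3.13% to 20.7%), against 2.55% and 1.31% of the cells without Krt6a. Krt75 was counted in 2 and 1 cells, none of them with Krt6a or Krt16. That no control cell had both keratins therefore rests on 31 and 53 cells with Krt6a, and in the *Vdr* cKO-labelled library 12.4% of the cells with Krt6a had Krt75.

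Inner root sheath cells, taken as kept cells with at least 500 CPM of the 6 inner root sheath genes, numbered 1, 4 and 183. In the *Vdr* cKO-labelled library those outside the chosen cells and short of the keratin limit had Krt75 at 74.4 CPM, Krt16 at 49.6 CPM, Sox9 at 163 CPM and Lor at 12836 CPM. The 140 Krt6a/Krt75 cells had Sox9 at 516 CPM and Lor at 4759 CPM. The 10 cells past the keratin limit but stopped by the inner root sheath limit were on the same side, with Sox9 at 768 CPM and Lor at 4354 CPM, so these levels are not particular to the chosen cells.

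Between the libraries, levels in the Krt6a/Krt75 cells of the *Vdr* cKO-labelled library differed by over 2-fold, in the same direction, from each control for 1573 of 4932 genes that reached 50 CPM (31.9%), 1382 of them higher (28%). The same count was 2902 (58.8%) with control 1 in its place and 2020 (41.0%) with control 2. By this measure either control, with 12 and 14 cells, stood farther apart than the *Vdr* cKO-labelled library. The measure cannot separate a spread between libraries from depth. The chosen cells held 77070, 306418 and 1673617 counts, and 73.2%, 54.5% and 6.17% of the genes tested had no count in them. No conclusion on the genotype is drawn from these counts. In the other kept cells the counts were 194 (4.96%), 62 (1.59%) and 62 (1.59%) of 3910 genes.

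The genes farthest above both controls among these cells were Krt75, which the choice used, Pinlyp, Insig2, Ube2k, Zranb1 and Pex16, each without a count in the control cells. No count allows up to 38.9 and 9.79 CPM in control 1 and control 2. The order thus follows the level in the *Vdr* cKO-labelled library and gives no measured fold. Insig2, a regulator of sterol synthesis, was at 387 CPM in the Krt6a/Krt75 cells of the *Vdr* cKO-labelled library, and in the other cells of the controls it was at 264 and 187 CPM. Ube2k, a ubiquitin-conjugating enzyme, was at 348 CPM, against 387 and 335 CPM in those other control cells. The lowest were Iars, Nufip1, Ctbp2, Kti12, Pctp and Fahd2a, each counted in at most 2 cells of each control. Iars, a transfer RNA synthetase, was at 843 and 75.1 CPM in the controls and at 0.598 CPM in the *Vdr* cKO-labelled library.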

How the data were processed

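The authors sequenced 3 droplet libraries and deposited a matrix of counts for each gene and barcode, without normalization; mm10 is named in the submitters' processing notes, the study's methods name Seurat v4 for the alignment, and the read aligner behind it, the annotation and the treatment of PCR copies are not given in the sources used here. Kept cells held a median of 4190, 4493.5 and 4094.5 counts outside and 4044.5, 2754 and 3560 counts inside the chosen cells. Counts were summed over cells within a library and divided by the total to give CPM. Sums of chosen and other cells were compared in R 4.3.3 with edgeR 4.0.16 (TMM factors, filterByExpr, quasi-likelihood test, library as a block, Benjamini-Hochberg adjustment); DESeq2 1.42.0 was an alternative. The p-values rest on the spread between 3 libraries as pooled over genes. The fit drew each gene's spread toward a trend over the 10878 genes tested, with an infinite mean prior degrees of freedom. They therefore do not measure a gene's own spread between the libraries alone, and the SE values share this limit. Log2 ratios within a library used 1 CPM added to each value. Thinning, intervals and plots used Python 3.11.15, numpy 2.4.6, scipy 1.17.1, pandas 2.3.3 and matplotlib 3.10.9. Gene positions came from GENCODE of GRCm38, in which 97.6% of the 19927 symbols were found. Thinning to 1000 counts left out 14, 61 and 60 kept cells of control 1, control 2 and the *Vdr* cKO-labelled library, of which 0, 2 and 5 were chosen cells. The edgeR procedure was tested on simulated data: it called the larger changes of abundant genes at a low spread and none at the spread seen between these libraries, and the median unchanged gene was fitted below 0. A gene that did not pass is therefore not shown to be alike. Genes were named by these rules: the genes of the choice, the companion layer list and the study's follicle genes; up to 4 most abundant genes of each other list; up to 12 highest and 12 lowest genes past the test with at least 100 CPM and 1 direction in all libraries; and the 6 highest and 6 lowest between libraries. The 20 highest and 12 lowest within the *Vdr* cKO-labelled library were chosen after their values were seen. The cells, the 28 gene lists and the rules were chosen with earlier results of these data known. Doublets were not called here; an alternative left out the 5% of cells with most counts.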

Additional observations from a re-analysis of the deposited data

Results flagged for a closer look

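For 6 named genes with at least 20 counts in the Krt6a/Krt75 cells of each library, the log2 ratio of Krt6a/Krt75 cells to other cells had the opposite sign in the *Vdr* cKO-labelled library from both controls; the difference was not tested, and each value compares 12, 14 and 140 cells with their neighbours. Dst, which encodes the hemidesmosome protein dystonin, had -0.73 in the *Vdr* cKO-labelled library and 3.18 and 0.05 in control 1 and control 2, and its control 1 counts came from 3 cells. Krt15 had 0.67 against -1.34 and -0.12. Klk7 had -0.79 against 0.83 and 0.50. Scd1 had 1.20 against -2.52 and -0.86. Perp, a desmosome gene, had 0.19 against -0.34 and -0.21, and Jup, which encodes plakoglobin, had 0.093 against -1.11 and -0.17. With every cell given equal weight, the *Vdr* cKO-labelled library had a ratio of -0.01 for Dst, which was counted in 57.9% of the Krt6a/Krt75 cells and 58.6% of the others, and 0.36 for Krt15, -0.64 for Klk7, 0.39 for Scd1, 0.078 for Perp and 0.0075 for Jup, all nearer to 0 than from the sums.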

How the results depend on the processing

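The share of Krt6a/Krt75 cells in control 1, control 2 and the *Vdr* cKO-labelled library moved with the keratin limit. In control 1 it was 1.42% at 500, 0.405% at 2000 and 0.0676% at 5000 CPM, 0% by Krt75 alone and 1.43% after thinning. In control 2 it was 0.181% at 5000 CPM, 0% by Krt75 alone and 1.5% after thinning. In the *Vdr* cKO-labelled library it was 8.85% at 500, 2.97% at 2000 and 0.801% at 5000 CPM, 1.26% by Krt75 alone, 4.35% by Krt6a alone and 8.86% after thinning.

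The count of genes past the edgeR test was 3, and it was 0 with at least 500 detected genes, at 5000 CPM, with the cell of most Krt6a and Krt75 counts left out of each library (chosen after seeing the data), with DESeq2 size factors, library totals alone, the DESeq2 Wald test and at least 50 counts in every sum (14 of 218 genes at an unadjusted p of 0.05 there, and 704 to 2901 in the others). It was 1 at 500 CPM and 1 without the library block, 681 at 2000 CPM (27 higher, and 2 of the 3 genes among the 681), 83 without a filter on low counts (78 higher) and 9 with each gene counted once per cell (9 higher). Leaving out a library gave 0 to 313 genes, 0 without the *Vdr* cKO-labelled library and 313 without control 2. Krt75 alone left no control cell and could not be fitted. Between the genotypes no paired analysis was possible, because only 1 library carried the *Vdr* cKO label and the labels name no pairs.

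Krt10, Lor and Krtdap stayed lower in all 23 alternatives, with log2 folds from -2.99 to -0.31, -3.30 to -0.33 and -3.13 to -0.31, and they missed the threshold in 10, 12 and 14 of them, with adjusted p-values up to 1.00. DESeq2 size factors and library totals moved the median of all genes by 0.33 and 0.20 on the log2 scale. Krt16, at -0.04, turned positive in 13 alternatives: 0.037 with at least 300 and 0.045 with at least 500 detected genes, 1.05 at 2000 and 0.49 at 5000 CPM, 0.018 by Krt6a alone, 0.20 without the deepest 5% of cells, 1.95 with each gene counted once per cell, where it passed the test (adjusted p = 0.000873), 0.47 with DESeq2 size factors, 0.43 with library totals, 0.29 with the DESeq2 Wald test, 3.05 without the library block, and 1.68 and 2.08 without control 1 and control 2 (-2.35 to 2.08 with any library left out). Krt14 turned to -0.64 at 2000 and -6.24 at 5000 CPM, to -0.31 with each gene counted once per cell and to -0.23 without the *Vdr* cKO-labelled library (-0.23 to 0.48 with any library left out). Krt17 turned to -0.22 with each gene counted once per cell and -0.20 without the cell of most keratin counts, and passed the test without control 1 (log2 fold 1.49, adjusted p = 0.00632). Krt5 turned to -0.10 at 5000 CPM. Within the *Vdr* cKO-labelled library, the Krt15 ratio turned to -0.030 with each gene counted once per cell. The cause was not tested.

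Genes over 2-fold apart from both controls numbered 1573; they were 2378 at 5000 CPM, 4209 at a level of 10 CPM and 322 at 200 CPM, and 3089 to 3427 with a control left out. Depth limits all of this: the control cells held 77070 and 306418 counts in all.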
